A study of Homo sapiens with 10 samples.

Results

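The unfolded protein response (UPR) and the quality control machinery of the endoplasmic reticulum (ER) were followed through 41 named genes in LoVo cells, an established line from a human colon cancer. Each gene was read from probe sets to which the platform annotation gives that symbol alone and, where there were several, from the probe set with the highest mean log2 signal over the 10 arrays. Of the 41 genes 39 had such a probe set, among 19775 genes in the whole series that had one. PDIA5, a disulfide isomerase, and SYVN1, the ubiquitin ligase HRD1, had none and are only named here. The study asked what withdrawal of serum did to the transcripts of these cells and how asymmetric dimethylarginine (ADMA), an endogenous inhibitor of nitric oxide synthase, altered that. ADMA-treated cells (n = 4 arrays) were kept in medium without serum that held 10 µM ADMA, serum-starved cells (n = 3) in medium without serum and without ADMA, and control cells (n = 3) in medium with 10% fetal bovine serum, with 96 h given as the time before harvest. All 3 groups were the same line in DMEM with penicillin and streptomycin, and no gene was deleted or added in any of them. The labels call the arrays of a group biological replicates and say nothing of when or from which dishes the cells came, so that the p-values here measure the spread between these arrays alone.

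The ER folds and ships proteins bound for the membrane or the outside of the cell. Unfolded protein there engages 3 sensors in the ER membrane: IRE1α, encoded by ERN1, splices the XBP1 mRNA, PERK, encoded by EIF2AK3, phosphorylates eIF2α and slows translation, and ATF6 travels to the Golgi, where it is cut into a transcription factor. Spliced XBP1 and cut ATF6 switch on chaperones, disulfide isomerases and the machinery that pulls misfolded protein out of the ER for degradation, and the secretory cells of the gut lining depend on this system. The arrays read mRNA abundance, and the splicing of XBP1, the phosphorylation of PERK and the cutting of ATF6 were not measured.

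Signals are MAS 5.0 intensities on a linear scale, and every array had a trimmed mean of 500.1. The median signal was 91.9 to 98.1 on ADMA arrays, 87.5 to 90.7 on serum-starved arrays and 60.7 to 73.1 on control arrays, and the 28S rRNA control probe set read 795.4 to 1052.2 on ADMA arrays, 1344.7 to 2014.4 on serum-starved arrays and 501.4 to 633.6 on control arrays. The ratio of the 3′ to the 5′ ACTB probe set was 1.019 to 1.047 on ADMA arrays, 1.129 to 1.227 on serum-starved arrays and 1.009 to 1.085 on control arrays. The ratio for GAPDH was 0.855 to 0.896 on ADMA arrays, 0.861 to 0.974 on serum-starved arrays and 0.857 to 0.931 on control arrays, with overlap. The median signal and the 28S signal separate all 3 groups. The ACTB ratio sets only the serum-starved arrays apart. The part of these values in the results was not tested. All 12 colon epithelium markers, EPCAM, CDX2 and the keratins among them, were above background on all 10 arrays, with summed signals of 155500 to 177901 on ADMA arrays, 129411 to 149207 on serum-starved arrays and 94108 to 95544 on control arrays. Of the leukocyte markers PTPRC, CD14 and ITGB2 were above background on 0 of 10 arrays, LCP1 on 1, CD3E on 7 and LYZ on 10. Of 6 leukocyte markers with a probe set 1, the lysozyme gene LYZ, reached the signal filter, and it drove a summed leukocyte marker signal of 1422 to 2126 on ADMA arrays, 3984 to 4693 on serum-starved arrays and 516 to 769 on control arrays. The fibroblast markers reached the filter in 4 of 10 cases, with summed signals of 2577 to 2998 on ADMA arrays, 2214 to 2359 on serum-starved arrays and 1461 to 1565 on control arrays. The endothelial markers reached it in 2 of 7 cases and summed to 526 to 761 on ADMA arrays, 567 to 711 on serum-starved arrays and 545 to 598 on control arrays. Because an array reads the RNA of a whole culture brought to a common scale, fewer cells that hold a transcript and less of it per cell cannot be told apart.

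Promoters of UPR targets are known for the ER stress response element (ERSE), the letters CCAAT and CCACG with 9 bases between them, which the factor NF-Y and cut ATF6 bind together. Its shorter relative ERSE-II reads ATTGG, any 1 base and CCACG, and the UPR element (UPRE), a site for spliced XBP1, reads TGACGTGG. RefSeq promoter windows (GRCh38.p14, 250 bases before to 50 after an annotated start) were at hand for 37 of the 41 genes and for 27305 genes in all, and both strands were searched. An ERSE stood in a window of 7 of the 37 genes (18.9%), against 25 of all 27305 genes (0.0916%). ERSE-II stood in 3 of the 37 (8.11%), against 19 of all (0.0696%), and UPRE in 4 of the 37 (10.8%), against 253 of all (0.927%). The sites that best show the element are printed here along the motif, with the fixed letters in capitals and the variable bases in lower case.
HSPA5, chr9:125241391-125241409, minus strand: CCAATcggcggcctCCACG
XBP1, chr22:28800603-28800621, minus strand: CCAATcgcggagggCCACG
HSP90B1, upstream site, chr12:103930216-103930234, plus strand: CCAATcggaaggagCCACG
HSP90B1, site nearer the start, chr12:103930321-103930339, minus strand: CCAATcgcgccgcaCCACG
CRELD2, chr22:49918554-49918572, minus strand: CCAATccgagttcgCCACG
CALR, chr19:12938384-12938402, minus strand: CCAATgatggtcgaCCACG
HERPUD1, ERSE-II, chr16:56932025-56932035, plus strand: ATTGGGCCACG
SDF2L1, ERSE-II, chr22:21642114-21642124, minus strand: ATTGGTCCACG
The 250 bases before the start of HSPA5, the gene of the chief ER chaperone BiP, are shown because they set the element in its place, 66 bases before the start, with its fixed letters in capitals (chr9:125241344-125241593, minus strand).
HSPA5: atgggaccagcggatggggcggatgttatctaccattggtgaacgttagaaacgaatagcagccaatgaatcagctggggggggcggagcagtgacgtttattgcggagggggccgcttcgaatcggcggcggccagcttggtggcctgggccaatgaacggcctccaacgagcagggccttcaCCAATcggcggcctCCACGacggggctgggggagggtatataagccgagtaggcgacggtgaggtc

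**Figure D1:**
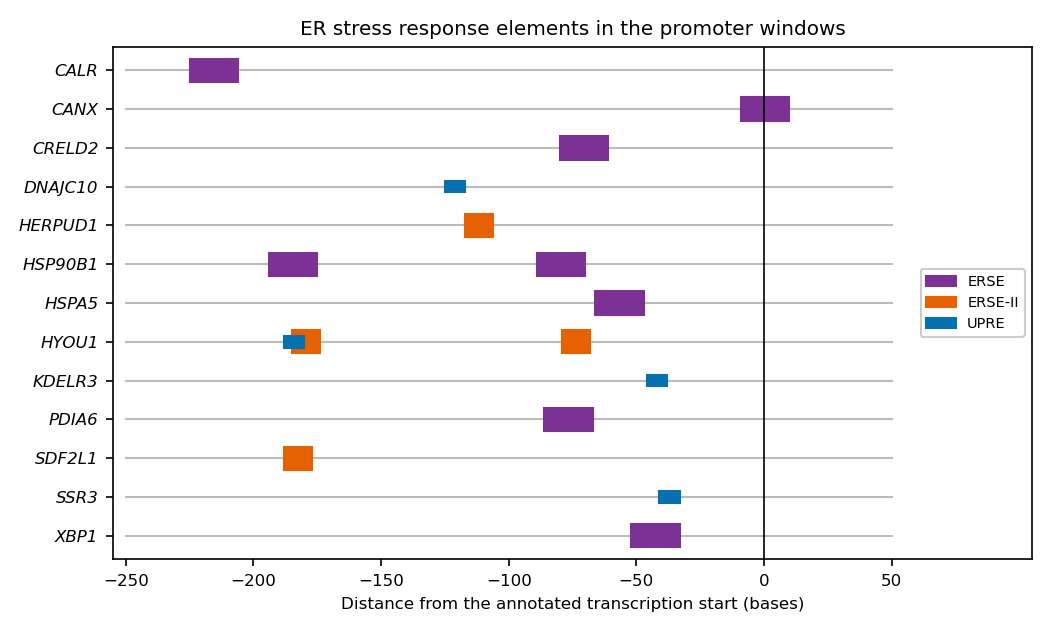
Positions of ERSE, ERSE-II and UPRE matches in the promoter windows of the 13 genes that hold any, with the distance from the annotated transcription start in bases on the horizontal axis and 1 gene per line. Boxes are drawn to the length of the match, UPRE at less height, and for a gene with several starts the window drawn is the first on the chromosome that holds a match. HSP90B1 has 2 ERSE matches and HYOU1 has 2 ERSE-II matches, the farther of which overlaps its UPRE match.

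A gene was called higher or lower where the adjusted p of limma was under 0.01 and the fold at least 1.2, and 12293 genes passed the filter on low signal and were tested, all 39 genes with a probe set among them. Serum starvation against control gave 20 of the 39 higher, where 30.6% of all tested genes were called higher, and 7 lower, where 27.5% were. ADMA against serum starvation gave 25 of the 39 lower, where 13.9% of all tested genes were called lower, and 0 higher, where 15.8% were. ADMA against control gave 7 higher, against 26.9% of all genes, and 11 lower, against 23.3%. These shares of all tested genes also stand behind the counts by role, promoter element and further list below. Counts near them are not read as results about those genes. The median log2 difference of the 39 genes was 0.33 in serum starvation against control, with 0.07 over all tested genes, and -0.49 with ADMA against serum starvation, with 0.03 over all tested genes. For ADMA against control it was -0.07, with 0.07 over all tested genes. The 3 comparisons share arrays in pairs, so that a gene high on the serum-starved arrays enters the first as a rise and the second as a fall. The summed signal of the 39 genes was 147245 to 151702 on ADMA arrays, 196964 to 205798 on serum-starved arrays and 173543 to 179063 on control arrays, and these ranges do not overlap.

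The scale on which arrays are set against each other bears on these counts. With each array centred on its median, the median of all tested genes moved to -0.32 in serum starvation against control, -0.09 with ADMA against serum starvation and -0.44 with ADMA against control. Of all tested genes 16.6% were then higher and 42.2% lower in the first comparison, 7.39% and 17.1% in the second and 9.97% and 49.6% in the third. Of the 39 genes 12 were then higher and 15 lower in serum starvation against control, 0 and 28 with ADMA against serum starvation and 2 and 28 with ADMA against control. In serum starvation against control 8 rises lost their call on this scale, those of HSPA5, HYOU1 (0.13, adjusted p = 0.344), DNAJC3 (0.33, adjusted p = 0.0196), WFS1 (0.32, adjusted p = 0.0558), EDEM3 (0.38, adjusted p = 0.0204), DERL2, SSR3 and KDELR3, and 8 genes were newly called lower, namely DNAJB11, CALR, CANX, PDIA4, PDIA6, EDEM2, SEC61B and SSR1. The median of the 39 genes less that of all tested genes stayed at 0.26, -0.52 and -0.14, as the construction of the centring requires.

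The sensor transcripts were all higher in serum-starved cells, and ERN1 moved most of all 39 genes. ERN1 read 940.4, 1030.3, 1036.1 and 842.8 on ADMA arrays, 3733.7, 3692.7 and 3471.5 on serum-starved arrays and 318, 321.7 and 292.4 on control arrays. The 3 groups do not overlap, with every serum-starved array more than every ADMA array and every ADMA array more than every control array. ERN1 was 11.7-fold higher in serum starvation than in control (log2 difference 3.55 ± 0.09 (SE), adjusted p = 5.57e-13 from limma), the 40th largest rise among 12293 genes. With ADMA it was 3.79-fold lower than in serum starvation (log2 difference -1.92 ± 0.08 (SE), adjusted p = 1.43e-09), the 7th largest fall, and it was still 3.09-fold above control (log2 difference 1.63 ± 0.08 (SE), adjusted p = 8.37e-10). The other ERN1 probe sets that reached the filter had mean signals of 159 and 251. In serum starvation against control they moved the same way by less, at 0.79 and 0.48. With ADMA against serum starvation they did so too, at -0.53 and -0.70. With ADMA against control they gave 0.26 and -0.22, so that the level of ERN1 under ADMA relative to control depends on the probe set read.

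EIF2AK3, the gene of PERK, read 667.7, 557, 508 and 540.1 on ADMA arrays, 1327.2, 1334.6 and 1154.8 on serum-starved arrays and 596.6, 576.6 and 606.1 on control arrays. The serum-starved arrays stand above all others, and the ADMA arrays lie on either side of the control arrays. It was 2.25-fold lower with ADMA than in serum starvation (log2 difference -1.17 ± 0.10 (SE), adjusted p = 5.46e-07 from limma) and 2.14-fold higher in serum starvation than in control (log2 difference 1.10 ± 0.11 (SE), adjusted p = 3.07e-07). ADMA against control gave log2 difference -0.07 ± 0.10 (SE), adjusted p = 0.564, which was not called. ATF6 took another course. It read 1514.4, 1422.7, 1473.7 and 1461.4 on ADMA arrays, 1548.5, 1337.2 and 1444.9 on serum-starved arrays and 690.1, 697.7 and 643.1 on control arrays. The ADMA and serum-starved arrays overlap and all of them lie above the control arrays. The difference between ADMA and serum starvation was log2 difference 0.03 ± 0.07 (SE), adjusted p = 0.795, which was not called, while ATF6 was 2.17-fold higher with ADMA than in control (log2 difference 1.12 ± 0.07 (SE), adjusted p = 7.27e-09) and 2.13-fold higher in serum starvation than in control (log2 difference 1.09 ± 0.08 (SE), adjusted p = 9.66e-09). Another ATF6 probe set, with a mean signal of 492, gave -0.65 with ADMA against serum starvation, and the ones at 132 and 394 each gave -0.24, so that the level of ATF6 under ADMA depends on the probe set read.

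**Figure D2:**
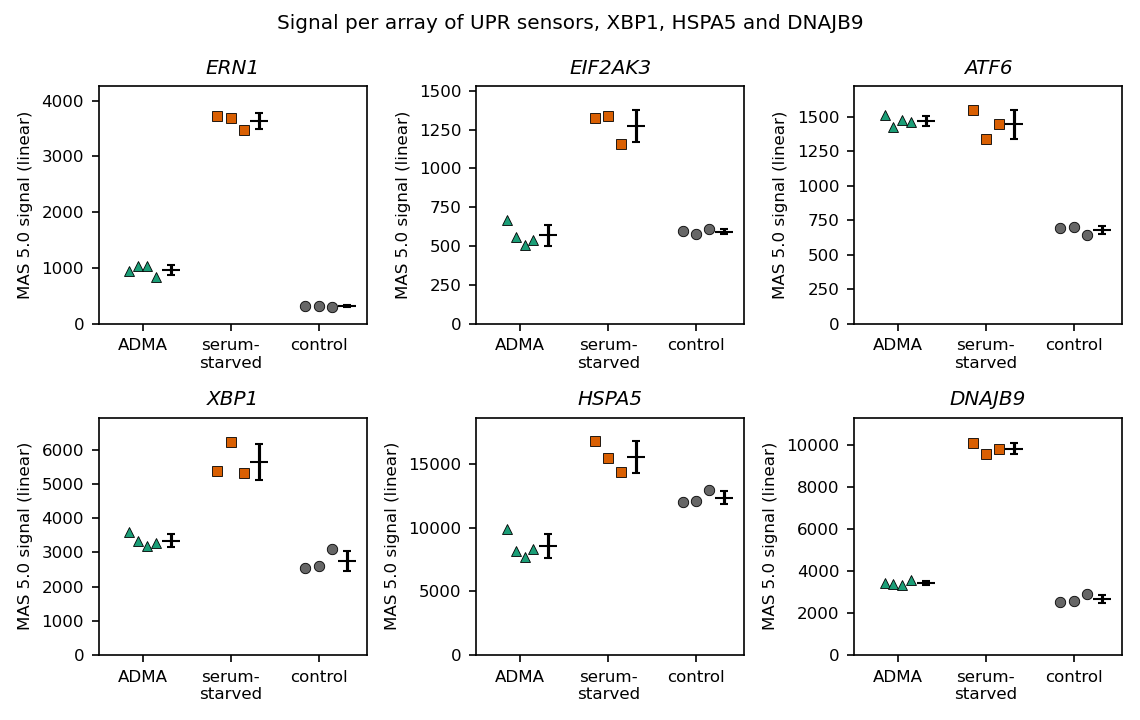
MAS 5.0 signal on a linear scale for ERN1, EIF2AK3, ATF6, XBP1, HSPA5 and DNAJB9 on each array of the ADMA (n = 4), serum-starved (n = 3) and control (n = 3) groups, with the mean and SD beside the points. ERN1 falls into 3 separate levels, EIF2AK3 and HSPA5 peak in serum-starved cells, with the ADMA arrays of HSPA5 below control, and ATF6 is as high on ADMA arrays as on serum-starved arrays.

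Both transcription factors on the list were higher in serum starvation than in control and lower with ADMA than in serum starvation on the probe sets used. XBP1 read 3596.9, 3331.3, 3185.6 and 3257.1 on ADMA arrays, 5377.5, 6233.3 and 5305.9 on serum-starved arrays and 2550.1, 2601.4 and 3092.7 on control arrays. None of the 3 groups overlap, although the lowest ADMA array and the highest control array are close. XBP1 was 1.68-fold lower with ADMA than in serum starvation (log2 difference -0.75 ± 0.08 (SE), adjusted p = 4.22e-06 from limma), 2.05-fold higher in serum starvation than in control (log2 difference 1.04 ± 0.08 (SE), adjusted p = 4.90e-08) and 1.22-fold higher with ADMA than in control (log2 difference 0.29 ± 0.08 (SE), adjusted p = 0.00561). This last call was lost without control replicate 1 (0.24, adjusted p = 0.0342), control replicate 2 (0.25, adjusted p = 0.0303), ADMA replicate 1 (0.25, adjusted p = 0.0178) or ADMA replicate 2 (0.29, adjusted p = 0.0121), and its sign turned to -0.22 with arrays centred on their medians. CREB3L2, a transducer of the ATF6 type that serves secretory cells, read 807.9, 817.4, 778.3 and 781.9 on ADMA arrays, 1673.4, 1482.1 and 1429.4 on serum-starved arrays and 687.9, 745.6 and 741.9 on control arrays. The ADMA arrays lie just above the control arrays, and the serum-starved arrays far above both. It was 1.92-fold lower with ADMA than in serum starvation (log2 difference -0.94 ± 0.08 (SE), adjusted p = 3.90e-07) and 2.10-fold higher in serum starvation than in control (log2 difference 1.07 ± 0.08 (SE), adjusted p = 2.39e-08), but its dimmer probe set, with a mean signal of 107, gave 0.10 and -0.08 in these comparisons.

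Of the 9 chaperones and co-chaperones 7 were lower with ADMA than in serum starvation and 0 were higher, whereas serum starvation against control gave 4 higher and 2 lower. HSPA5, which encodes BiP, read 9889.6, 8168, 7707.4 and 8355.1 on ADMA arrays, 16805.6, 15473.8 and 14330 on serum-starved arrays and 12044.9, 12090.3 and 12935.2 on control arrays. Every serum-starved array lies above every control array, and every ADMA array lies below every control array. HSPA5 was 1.83-fold lower with ADMA than in serum starvation (log2 difference -0.87 ± 0.08 (SE), adjusted p = 9.89e-07 from limma) and 1.45-fold lower with ADMA than in control (log2 difference -0.54 ± 0.08 (SE), adjusted p = 2.84e-05). It was 1.26-fold higher in serum starvation than in control (log2 difference 0.33 ± 0.08 (SE), adjusted p = 0.0029), and this call was lost without control replicate 1 (0.31, adjusted p = 0.0125), control replicate 2 (0.31, adjusted p = 0.0126) or serum-starved replicate 1 (0.27, adjusted p = 0.0183). With arrays centred on their medians the rise of HSPA5 turned to -0.06, and the dimmer HSPA5 probe set, with a mean signal of 474, gave -0.14 in serum starvation against control and -0.43 with ADMA against serum starvation.

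DNAJB9, the BiP co-chaperone ERdj4 and a well known target of spliced XBP1, read 3420.5, 3385.1, 3320.5 and 3583.2 on ADMA arrays, 10100.1, 9590.6 and 9813.3 on serum-starved arrays and 2543, 2585.8 and 2890.7 on control arrays. The groups do not overlap, and the ADMA arrays are much closer to control than to serum starvation. DNAJB9 was 2.87-fold lower with ADMA than in serum starvation (log2 difference -1.52 ± 0.06 (SE), adjusted p = 4.82e-10 from limma), 3.68-fold higher in serum starvation than in control (log2 difference 1.88 ± 0.06 (SE), adjusted p = 4.88e-12) and 1.28-fold higher with ADMA than in control (log2 difference 0.36 ± 0.06 (SE), adjusted p = 7.34e-05). The last of these turned to -0.15 with arrays centred on their medians, and the DNAJB9 probe sets with mean signals of 2089 and 978 gave 0.07 and -0.28 there, while both rose in serum starvation (1.50 and 2.43) and were lower with ADMA (-1.43 and -2.70). HYOU1, an Hsp70 of the ER that serves BiP as exchange factor, and DNAJC3, the co-chaperone p58IPK that holds PERK in check, rose in serum starvation against control (log2 difference 0.52 ± 0.09 (SE), adjusted p = 1.66e-04 and log2 difference 0.72 ± 0.07 (SE), adjusted p = 5.63e-07) and fell with ADMA against serum starvation (-0.55 and -0.73). For both genes the ADMA arrays overlap the control arrays.

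The remaining chaperones did not rise in serum starvation. SDF2L1, which partners ERdj3 in the BiP cycle, read 1181.1, 1278.1, 1327.8 and 1365.3 on ADMA arrays, 1333.2, 1239.3 and 1475.2 on serum-starved arrays and 3083.5, 3077.5 and 2634.8 on control arrays. The ADMA and serum-starved arrays overlap and all lie far below control. SDF2L1 was 2.17-fold lower in serum starvation than in control (log2 difference -1.12 ± 0.09 (SE), adjusted p = 3.29e-08 from limma) and 2.27-fold lower with ADMA than in control (log2 difference -1.18 ± 0.08 (SE), adjusted p = 1.65e-08), and ADMA against serum starvation gave log2 difference -0.07 ± 0.08 (SE), adjusted p = 0.557. HSP90B1, the ER chaperone GRP94, fell at each step on the probe set used, by 0.41 with ADMA against serum starvation (adjusted p = 3.00e-04) and by 0.31 in serum starvation against control (adjusted p = 0.0017). Its other probe set, with a mean signal of 1590, gave only -0.14 and -0.05 in these comparisons. The call of HSP90B1 in serum starvation against control was lost without control replicate 3 (-0.26, adjusted p = 0.0115), without serum-starved replicate 1 (-0.28, adjusted p = 0.0102) and with quantile normalization (-0.17, adjusted p = 0.0422). DNAJB11, the co-chaperone ERdj3, and CALR, the lectin chaperone calreticulin, were lower with ADMA than in serum starvation (-0.36 and -0.77) and lower with ADMA than in control (-0.62 and -1.03). In serum starvation against control both gave -0.26 and were not called, CALR with an adjusted p of 0.0400 and overlapping arrays. The missing call of CALR depends on the probe set, since its other probe sets, with mean signals of 546 and 2216, gave -1.17 and -0.38 there, and the mean of its probe sets gave -0.61 (adjusted p = 3.17e-05). DNAJB11 passed the fold of 1.2 without control replicate 2 (-0.27, adjusted p = 0.00209) or serum-starved replicate 1 (-0.28, adjusted p = 0.00133). CANX, the membrane-bound lectin chaperone calnexin, was called in no comparison and stayed between 14693 and 17676 on the 10 arrays, although without probe sets marked as shared it was lower in serum starvation than in control (-0.54, adjusted p = 2.73e-04) and lower with ADMA than in serum starvation (-0.38, adjusted p = 0.00513).

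Of the 5 disulfide isomerases that were measured, 2 were lower with ADMA than in serum starvation, and serum starvation against control gave 1 higher and 1 lower. PDIA4, the isomerase ERp72, read 2759.5, 2799.9, 2935.6 and 2965.1 on ADMA arrays, 5473.9, 5325.5 and 5284 on serum-starved arrays and 5039.1, 5423.8 and 5974.3 on control arrays. The serum-starved and control arrays overlap, and the ADMA arrays lie well below all of them. PDIA4 was 1.87-fold lower with ADMA than in serum starvation (log2 difference -0.90 ± 0.06 (SE), adjusted p = 7.20e-08 from limma) and 1.91-fold lower with ADMA than in control (log2 difference -0.93 ± 0.06 (SE), adjusted p = 9.90e-09). Its difference between serum starvation and control was log2 difference -0.03 ± 0.07 (SE), adjusted p = 0.72, and turned to 0.04 without control replicate 3. The dimmer PDIA4 probe set, with a mean signal of 1774, gave -0.94 in serum starvation against control and -0.59 with ADMA against serum starvation. DNAJC10, the reductase ERdj5, rose in serum starvation against control (log2 difference 0.84 ± 0.07 (SE), adjusted p = 3.54e-08) and fell with ADMA against serum starvation (log2 difference -0.62 ± 0.06 (SE), adjusted p = 2.55e-06). PDIA3, the isomerase ERp57 that works with calnexin and calreticulin, fell in serum starvation against control (log2 difference -0.53 ± 0.10 (SE), adjusted p = 2.35e-04), and ADMA against serum starvation gave log2 difference -0.13 ± 0.09 (SE), adjusted p = 0.265, with overlapping arrays. P4HB, the classical protein disulfide isomerase, stayed between 11805 and 14674 on all 10 arrays and was called in no comparison, though with quantile normalization it was higher in serum starvation than in control (0.28, adjusted p = 3.22e-04). Its other probe sets, with mean signals of 5528 and 6801, gave -0.21 and -0.12 in serum starvation against control. With ADMA against control they gave -0.35 and -0.42. PDIA6 was not called either, with log2 difference -0.26 ± 0.05 (SE), adjusted p = 5.74e-04 in serum starvation against control, just short of the fold of 1.2. It passed that fold without control replicate 1 (-0.27, adjusted p = 0.00168), serum-starved replicate 1 (-0.27, adjusted p = 0.00212) or serum-starved replicate 3 (-0.30, adjusted p = 3.42e-04). The missing call of PDIA6 depends on the probe set. Its other probe sets, with mean signals of 6640, 9728 and 6774, gave -0.48, -0.20 and -0.67 in serum starvation against control. The mean of its probe sets gave -0.40 there (adjusted p = 1.34e-05).

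Among the secreted and membrane targets of the UPR, CRELD2 and MANF were the most reduced of the 39 genes with ADMA against control. CRELD2, a secreted factor of the ER and Golgi that ER stress is known to raise, read 2300, 1312.1, 1942.1 and 1922.3 on ADMA arrays, 2578.6, 2325.8 and 2848.1 on serum-starved arrays and 5298.2, 6063.7 and 5405.9 on control arrays. The groups do not overlap, though the highest ADMA array and the lowest serum-starved array nearly meet. CRELD2 was 3.05-fold lower with ADMA than in control (log2 difference -1.61 ± 0.14 (SE), adjusted p = 1.70e-07 from limma) and 2.17-fold lower in serum starvation than in control (log2 difference -1.12 ± 0.15 (SE), adjusted p = 1.03e-05). ADMA against serum starvation gave log2 difference -0.49 ± 0.14 (SE), adjusted p = 0.0109, just outside the threshold, and without ADMA replicate 1, the highest of its group, it gave -0.60 (adjusted p = 0.00206). MANF, a neurotrophic factor kept in the ER by BiP and calcium, read 1773.3, 1884.2, 2005.4 and 2053.4 on ADMA arrays, 3856.4, 3768.9 and 3777.1 on serum-starved arrays and 5435.1, 4887.3 and 4258.2 on control arrays. The ADMA arrays are lowest, the serum-starved arrays come next and the control arrays are highest, without overlap. MANF was 1.97-fold lower with ADMA than in serum starvation (log2 difference -0.98 ± 0.08 (SE), adjusted p = 3.07e-07), 2.51-fold lower with ADMA than in control (log2 difference -1.33 ± 0.08 (SE), adjusted p = 3.04e-09) and 1.27-fold lower in serum starvation than in control (log2 difference -0.35 ± 0.08 (SE), adjusted p = 0.00183). The last call was lost without control replicate 1 (-0.26, adjusted p = 0.0119) and with quantile normalization (-0.25, adjusted p = 0.0131). WFS1, the ER membrane protein wolframin, rose in serum starvation against control (log2 difference 0.70 ± 0.12 (SE), adjusted p = 1.03e-04) and fell with ADMA against serum starvation (log2 difference -0.72 ± 0.11 (SE), adjusted p = 1.42e-04).

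ER-associated degradation carries misfolded protein back to the cytosol, where ubiquitin marks it for the proteasome. Of its 8 measured genes 5 were lower with ADMA than in serum starvation and 0 were higher, and serum starvation against control gave 5 higher and 1 lower. SEL1L, the partner of the ligase HRD1, read 1143.6, 1243, 1254.3 and 1245.6 on ADMA arrays, 2028.3, 2144.9 and 1987.1 on serum-starved arrays and 856.7, 916.4 and 980 on control arrays. The groups do not overlap, and the ADMA arrays lie nearer to control. SEL1L was 1.68-fold lower with ADMA than in serum starvation (log2 difference -0.75 ± 0.07 (SE), adjusted p = 1.39e-06 from limma), 2.24-fold higher in serum starvation than in control (log2 difference 1.16 ± 0.08 (SE), adjusted p = 4.15e-09) and 1.33-fold higher with ADMA than in control (log2 difference 0.41 ± 0.07 (SE), adjusted p = 1.23e-04). EDEM1, a mannosidase-like protein that selects misfolded glycoproteins, read 771.2, 749.2, 658.2 and 714.7 on ADMA arrays, 1308.4, 1262.1 and 1242.2 on serum-starved arrays and 525.2, 513.8 and 507.8 on control arrays. Its groups are again separate and stand in the same order. EDEM1 was 1.76-fold lower with ADMA than in serum starvation (log2 difference -0.82 ± 0.08 (SE), adjusted p = 1.81e-06), 2.46-fold higher in serum starvation than in control (log2 difference 1.30 ± 0.08 (SE), adjusted p = 4.19e-09) and 1.40-fold higher with ADMA than in control (log2 difference 0.49 ± 0.08 (SE), adjusted p = 8.04e-05). With arrays centred on their medians the ADMA against control difference turned to -0.09 for SEL1L and -0.02 for EDEM1. The other SEL1L probe sets above the filter, with mean signals of 217 and 343, moved the same way by less. They gave -0.155 and -0.22 with ADMA against serum starvation and 0.46 and 0.69 in serum starvation against control.

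HERPUD1, a membrane scaffold of the degradation complex with an ERSE-II upstream, was bright and moved by nearly the same amount each way. Its difference was log2 difference -0.76 ± 0.06 (SE), adjusted p = 3.07e-07 with ADMA against serum starvation and log2 difference 0.76 ± 0.06 (SE), adjusted p = 8.03e-08 in serum starvation against control, and ADMA against control gave log2 difference -0.0039 ± 0.06 (SE), adjusted p = 0.962. EDEM3, a relative of EDEM1, rose in serum starvation against control (log2 difference 0.77 ± 0.12 (SE), adjusted p = 5.65e-05) and fell with ADMA against serum starvation (log2 difference -0.57 ± 0.11 (SE), adjusted p = 0.00109). DERL2, a member of the derlin family of retrotranslocation proteins, followed with smaller differences of log2 difference 0.36 ± 0.09 (SE), adjusted p = 0.0032 and log2 difference -0.41 ± 0.09 (SE), adjusted p = 0.00171. The rise of DERL2 in serum starvation was lost without control replicate 1 (0.34, adjusted p = 0.0124), control replicate 3 (0.33, adjusted p = 0.0143) or serum-starved replicate 1 (0.28, adjusted p = 0.0201) and turned to -0.03 with arrays centred on their medians, and its fall with ADMA was lost without serum-starved replicate 1 (-0.33, adjusted p = 0.0125). The dimmer DERL2 probe set, with a mean signal of 564, gave 1.003 in serum starvation against control. With ADMA it gave -0.38 against serum starvation and 0.62 against control, where the probe set used gave -0.05. DERL1 ran the other way on its brightest probe set, which fell in serum starvation against control (log2 difference -0.40 ± 0.08 (SE), adjusted p = 3.48e-04) and gave log2 difference 0.21 ± 0.07 (SE), adjusted p = 0.0329 with ADMA against serum starvation. This second difference was called without serum-starved replicate 3 (0.28, adjusted p = 0.00804) or at an adjusted p under 0.05 with no fold minimum. The other bright DERL1 probe sets, with mean signals of 1096 and 2376, gave 0.19 and 0.27 in serum starvation against control and -0.46 and -0.47 with ADMA against serum starvation, so that the direction of DERL1 is not settled by these arrays. EDEM2 was called in no comparison, and DERL3, the dimmest of the 39 genes, read between 90.7 and 176.6 on the 10 arrays with overlapping groups and was not called.

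Proteins enter the ER through the Sec61 channel, and signal peptides are cut off on the way. Of the 6 genes of this step 3 were lower with ADMA than in serum starvation and 0 were higher, and serum starvation against control gave 2 higher and 1 lower. SEC63, which ties BiP to the channel, rose in serum starvation against control (log2 difference 0.82 ± 0.06 (SE), adjusted p = 3.31e-08 from limma), fell with ADMA against serum starvation (log2 difference -0.42 ± 0.06 (SE), adjusted p = 6.85e-05) and was higher with ADMA than in control (log2 difference 0.40 ± 0.06 (SE), adjusted p = 4.13e-05), a difference that turned to -0.11 with arrays centred on their medians. SSR3, a subunit of the translocon-associated TRAP complex, gave log2 difference 0.39 ± 0.06 (SE), adjusted p = 6.07e-05 in serum starvation against control and log2 difference -0.48 ± 0.06 (SE), adjusted p = 1.58e-05 with ADMA against serum starvation. With centred arrays its rise came to -0.0024, and 2 of its other probe sets, with mean signals of 2762 and 223, gave -0.10 and -0.09. SSR1, another TRAP subunit, and SEC61A1, the pore itself, were called in no comparison on the probe sets used. SEC61A1 was called lower with ADMA against serum starvation without serum-starved replicate 1 (-0.36, adjusted p = 0.00519). SSR1 was called there with quantile normalization (-0.32, adjusted p = 1.98e-04) and centred arrays (-0.32, adjusted p = 0.00653), and without probe sets marked as shared it gave -0.61 with ADMA against serum starvation (adjusted p = 1.68e-05) and 1.33 in serum starvation against control (adjusted p = 2.15e-09). SEC61B, the β subunit of the channel, was lower with ADMA than in serum starvation (log2 difference -0.33 ± 0.06 (SE), adjusted p = 8.47e-04) and than in control (log2 difference -0.27 ± 0.06 (SE), adjusted p = 0.00195). The first call of SEC61B was lost by its fold without serum-starved replicate 1 (-0.25), and the second was lost without control replicate 1 (-0.25, adjusted p = 0.0120), ADMA replicate 3 (-0.25) or ADMA replicate 4 (-0.26). SPCS3, a subunit of the signal peptidase, fell in serum starvation against control (log2 difference -0.28 ± 0.06 (SE), adjusted p = 9.16e-04), by a fold so close to 1.2 that the call was lost without control replicate 1 (-0.26), control replicate 2 (-0.26) or serum-starved replicate 1 (-0.26).

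Of the 3 genes of transport between ER and Golgi, SEC24D moved most. SEC24D, a cargo-binding coat protein of COPII vesicles, read 263.1, 240, 171.6 and 232.7 on ADMA arrays, 759.5, 758.4 and 568.7 on serum-starved arrays and 316.5, 284 and 306.8 on control arrays. The serum-starved arrays stand far above the rest, and every ADMA array lies below every control array. SEC24D was 3.08-fold lower with ADMA than in serum starvation (log2 difference -1.62 ± 0.16 (SE), adjusted p = 1.75e-06 from limma), the 21st largest fall among all tested genes, and 2.28-fold higher in serum starvation than in control (log2 difference 1.19 ± 0.17 (SE), adjusted p = 1.54e-05). ADMA against control gave log2 difference -0.43 ± 0.16 (SE), adjusted p = 0.0259, which was not called. SEC23B, the coat protein that pairs with the SEC24 family, did not share the rise and gave log2 difference 0.05 ± 0.14 (SE), adjusted p = 0.758 in serum starvation against control. It was lower with ADMA than in serum starvation (log2 difference -0.59 ± 0.13 (SE), adjusted p = 0.0022) and than in control (log2 difference -0.54 ± 0.13 (SE), adjusted p = 0.00238), although 1 of the 4 ADMA arrays lies above the lowest serum-starved array. The calls of SEC23B were lost without serum-starved replicate 1 (-0.50, adjusted p = 0.0153) or serum-starved replicate 2 (-0.56, adjusted p = 0.0117) in the first case and without control replicate 1 (-0.46, adjusted p = 0.0166) in the second. KDELR3, a receptor that returns escaped ER proteins, rose in serum starvation against control (log2 difference 0.46 ± 0.06 (SE), adjusted p = 3.19e-06) and was not called with ADMA against serum starvation (log2 difference -0.23 ± 0.05 (SE), adjusted p = 0.00223), where it missed the fold of 1.2. The rise of KDELR3 was 0.07 with centred arrays. It was not called without serum-starved replicate 1 (0.29, adjusted p = 0.0861) or serum-starved replicate 2 (0.33, adjusted p = 0.0429). The brightest probe set was chosen anew in each run, and these values came with a change of probe set. The 2 brightest KDELR3 probe sets had mean signals of 4363 and 4318, and the second gave 0.25 with all arrays. On the first, used here, every serum-starved array (4806.1 to 5326.7) lay above every control array (3658.1 to 3715.1).

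**Figure D3:**
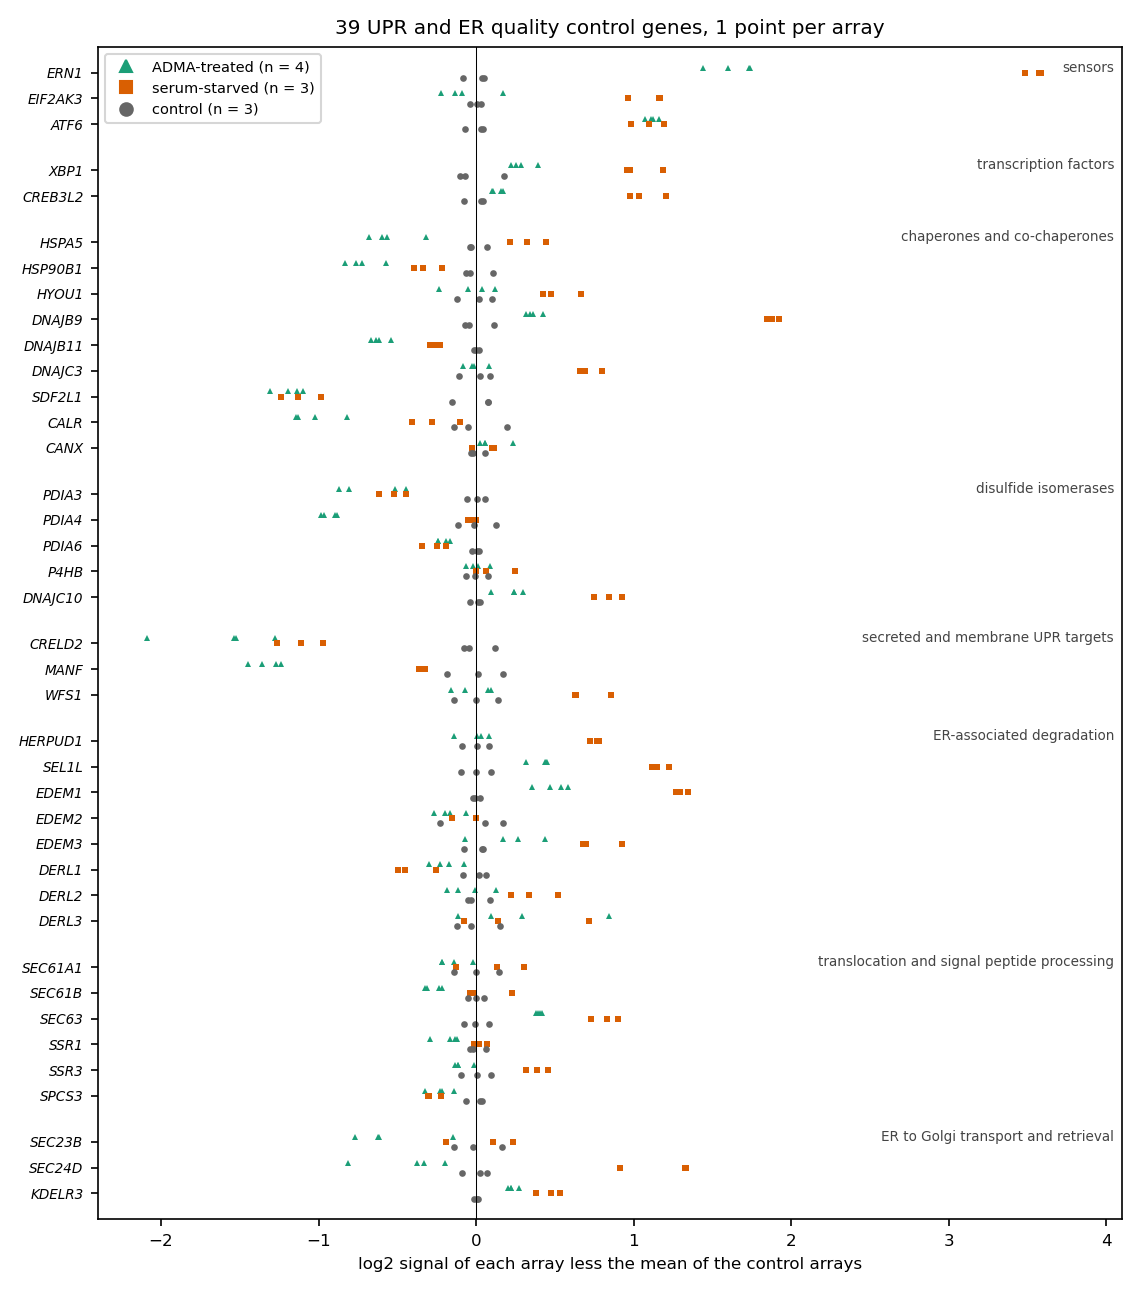
Each array's log2 signal less the mean of the control arrays for the 39 genes, grouped by role, with 1 point per array (ADMA n = 4, serum-starved n = 3, control n = 3) and the control mean at 0. The serum-starved points lie to the right of the ADMA points for most genes, and SDF2L1, CRELD2, MANF and PDIA4 hold ADMA points well to the left of control.

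Set side by side over the 3 comparisons, on the probe sets used, the 39 genes fell into 10 patterns of calls. 18 genes were higher in serum starvation than in control and lower with ADMA than in serum starvation, a pair of calls that share the serum-starved arrays and that 11.0% of all tested genes had. Against control, ADMA left 6 of them higher (ERN1, XBP1, DNAJB9, SEL1L, EDEM1 and SEC63), 1 lower (HSPA5) and 11 without a call, EIF2AK3, HERPUD1 and DNAJC3 among these. Another 5 genes, DNAJB11, CALR, PDIA4, SEC61B and SEC23B, were not called in serum starvation against control and were lower with ADMA in both of its comparisons. HSP90B1 and MANF were lower in serum starvation and lower again with ADMA, while SDF2L1, PDIA3 and CRELD2 were lower in serum starvation and with ADMA, each against control, and not called between ADMA and serum starvation. ATF6 and KDELR3 were higher in serum starvation than in control and not called with ADMA against serum starvation, and DERL1 and SPCS3 were lower in serum starvation and called nowhere else. CANX, PDIA6, P4HB, EDEM2, DERL3, SEC61A1 and SSR1 were called in none of the 3 comparisons. Arrays of the groups compared did not overlap for 27 of the 39 genes with ADMA against serum starvation, where this held for 46.4% of all tested genes. It held for 29 of the 39 in serum starvation against control, against 71.7% of all tested genes, and for 25 with ADMA against control, against 62.3%, and these shares are near those of all tested genes. The SD of the log2 signal within a group had a median over the 39 genes of 0.09 in the ADMA group, 0.09 in the serum-starved group and 0.08 in the control group, and its maximum was 0.41 in the ADMA group, 0.41 in the serum-starved group and 0.21 in the control group.

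**Figure D4:**
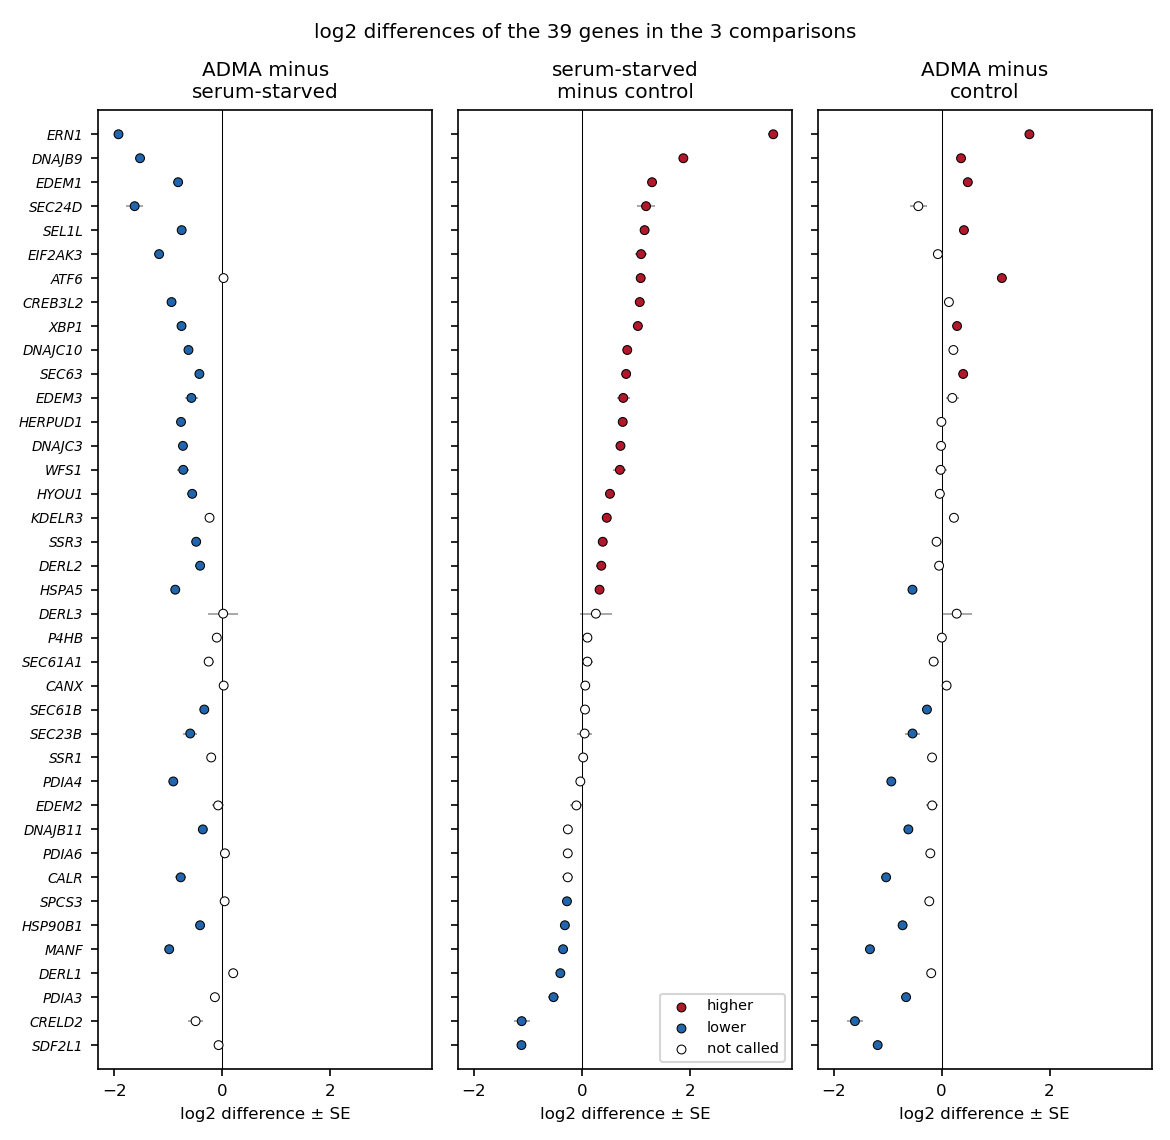
Log2 difference with its standard error (limma, n = 4 ADMA, 3 serum-starved and 3 control arrays) for the 39 genes, sorted by the difference between serum starvation and control, with filled points for called genes. In the ADMA minus serum-starved panel all 25 called genes lie below 0, and in the serum-starved minus control panel 20 lie above 0 and 7 below.

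The promoter elements printed above did not split the genes by the direction of their calls in a simple way. Of the 10 measured genes with an ERSE or ERSE-II in a window, 6 were lower with ADMA than in serum starvation and 0 higher, and in serum starvation against control 4 were higher and 3 lower, with medians of -0.52 and -0.10. Of the 25 measured genes whose windows held neither, 18 were lower with ADMA than in serum starvation and 0 higher, and in serum starvation against control 15 were higher and 2 lower, with medians of -0.57 and 0.46. Of all tested genes 13.9% were lower with ADMA than in serum starvation. In serum starvation against control 30.6% of them were higher and 27.5% lower, and the 4 and 3 of the 10 genes lie near these shares. HSPA5 and XBP1 rose in serum starvation while CRELD2 and HSP90B1 fell, all with an ERSE in the window, and SDF2L1, with an ERSE-II, fell. No match was found near the starts of ERN1, DNAJB9, EDEM1 and SEL1L, which says only that these letters are not in those windows. The UPRE letters stood at DNAJC10, HYOU1, KDELR3 and SSR3, all called higher in serum starvation than in control as 20 of the 39 genes were, and with centred arrays HYOU1, KDELR3 and SSR3 lost that call.

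Other ER genes were read from 9 further lists. The PERK arm and the targets of ATF4, the factor translated when PERK is active, had 0 higher and 9 lower of 17 tested under ADMA against serum starvation and 13 higher and 1 lower in serum starvation against control. This list also holds EIF2AK1, EIF2AK2 and EIF2AK4, which encode kinases other than PERK, so that its counts do not read PERK alone. DDIT3, the gene of the stress factor CHOP, gave -1.21 with ADMA against serum starvation and 2.60 in serum starvation against control. CHAC1, which degrades glutathione, gave -0.46 and 2.01 in these comparisons, and SESN2, a nutrient sensor, -0.97 and 1.10. EIF2S1, the gene of eIF2α itself, was lower in serum starvation than in control (-0.78). Other genes of ER to Golgi transport had 0 higher and 18 lower of 34 under ADMA against serum starvation and 20 higher and 5 lower in serum starvation against control. Among them the Golgi tether GOLGB1 gave -0.70 and 2.20 and the coat protein SEC24A -0.96 and 1.16 in the 2 comparisons, and COPE and LMAN2 fell most in serum starvation (-0.67 and -0.65).

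Of 26 tested genes of the calnexin cycle and N-glycosylation 4 were higher and 14 lower in serum starvation against control, and 4 were higher and 6 lower with ADMA against serum starvation. ALG8 and ALG3, which build the sugar precursor, gave -1.52 and -1.52 in serum starvation against control and 0.66 and 0.65 with ADMA against serum starvation, whereas GFPT1, the entry enzyme of the hexosamine pathway, and the glycoprotein folding sensor UGGT1 rose in serum starvation (1.24 and 0.85). ALG2 and UGGT2 fell most with ADMA against serum starvation (-0.73 and -1.05). Of 25 other oxidoreductases and folding factors 2 were higher and 6 lower with ADMA and 4 higher and 9 lower in serum starvation, where ERO1B, an oxidase that feeds disulfide isomerases, and FKBP14, a prolyl isomerase, rose (1.45 and 1.78) and FKBP7 and PRDX4 fell (-1.04 and -0.97). ERO1B and FKBP14 fell with ADMA against serum starvation (-1.59 and -1.19), and TMX2 and TMX3 rose (0.42 and 0.39). Of 29 other genes of translocation 1 was higher and 6 lower with ADMA and 3 higher and 11 lower in serum starvation. SEC11C, a signal peptidase subunit, and SRPRA, the receptor of the signal recognition particle, fell most with ADMA (-0.60 and -0.44), GET3 rose (0.43), and in serum starvation GET4 and SRPRA rose (0.76 and 0.70) while EMC8 and GET3 fell (-1.01 and -1.004).

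Other degradation genes numbered 29, of which 2 were higher and 5 lower with ADMA against serum starvation and 10 higher and 6 lower in serum starvation against control. The lectin ERLEC1 fell with ADMA (-0.90) and rose in serum starvation (0.89), while VCP, the ATPase that extracts substrates from the membrane, rose with ADMA (0.38) and was lower in serum starvation than in control (-0.76). UBE2J1 fell and UBE2G2 rose with ADMA (-0.54 and 0.30), and in serum starvation MARCHF6 rose (0.86) and UBE2J2 and UFD1 fell (-0.90 and -0.79). Of 15 other transducers and regulators 4 were higher and 1 lower with ADMA and 3 higher and 3 lower in serum starvation. ERN2, the gut form of the IRE1 sensor, rose in serum starvation (log2 difference 1.62 ± 0.28 (SE), adjusted p = 1.02e-04) and gave 0.11 with ADMA, which was not called. ERN2 was dim on control arrays, with a mean log2 signal of 6.31 against 7.93 in serum starvation and 8.04 with ADMA. Its probe set can also respond to related sequences. NFYB, a subunit of NF-Y, rose with ADMA (0.52) and fell in serum starvation (-0.95). NFYA rose with ADMA as well (0.38), CREB3 fell with ADMA and rose in serum starvation (-0.68 and 0.50), and BLOC1S1, a known substrate of IRE1α cleavage, fell in serum starvation (-0.83). The ER calcium and ER-phagy list of 16 had 1 higher and 3 lower with ADMA and 5 higher and 6 lower in serum starvation, with CALCOCO1 and ITPR3 as its largest rises in serum starvation (1.73 and 1.45) and TEX264 and RCN2 as its largest falls (-1.05 and -1.03). With ADMA ITPR2 rose (0.93) and CALU and CALCOCO1 fell (-0.60 and -0.55). Of 8 secretory epithelium genes 2 were higher and 2 lower with ADMA and 5 higher and 1 lower in serum starvation. The mucin gene MUC2 and the trefoil gene TFF1 rose in serum starvation (2.45 and 2.70) and AGR3 fell (-1.51), and with ADMA BHLHA15, a secretory cell factor, and TFF1 fell (-1.76 and -1.07) and FCGBP and AGR3 rose (1.15 and 0.97). FCGBP was dim outside the ADMA group, with mean log2 signals of 6.00 in control and 6.61 in serum starvation against 7.76 with ADMA.

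**Figure D5:**
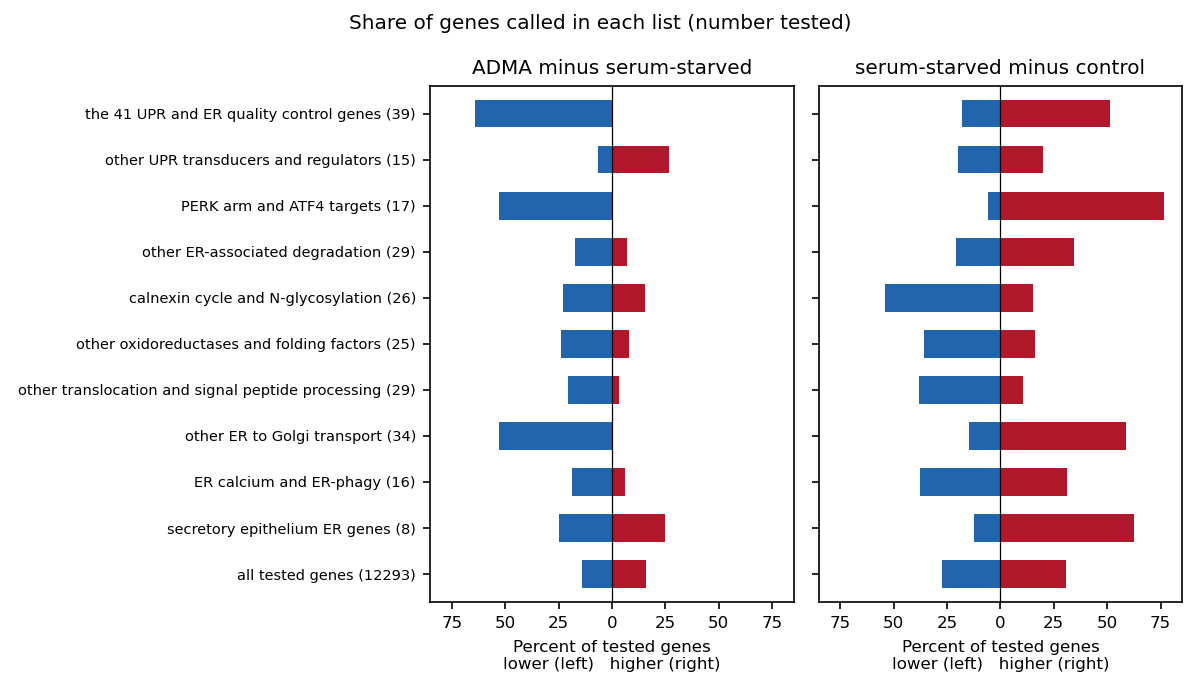
Percent of tested genes called lower (left of 0) or higher (right of 0) in each list, for ADMA minus serum-starved and serum-starved minus control, with the number of genes tested in parentheses and all 12293 tested genes at the bottom. The 39 measured genes, the list of the PERK arm and ATF4 targets, and the ER to Golgi list have no gene called higher in the ADMA panel.

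Where all probe sets of a gene were averaged in place of taking the brightest, 7 of the 25 genes lower with ADMA than in serum starvation lost that call (XBP1, CREB3L2, HSP90B1, SEL1L, EDEM3, SEC61B and SEC63). In serum starvation against control EIF2AK3, XBP1, CREB3L2, HSPA5, HSP90B1, DNAJC3, WFS1, SSR3 and KDELR3 lost theirs and DERL1 turned. There CALR, PDIA4 and PDIA6 were newly called lower, and SEC61B and SSR1 newly higher. The averages of EIF2AK3, XBP1, CREB3L2, SEL1L and SEC61B took in a probe set below the signal filter. These had mean signals of 18.7, 28.3, 65.7, 71.6 and 76.0. Since 27 of the 39 genes had further probe sets above the filter, 58 in all, their directions were set beside those used. With ADMA against serum starvation 44 of the 58 had the sign of the probe set used and 14 the opposite one, and in serum starvation against control 43 had the same and 15 the opposite. With ADMA against control 42 had the same sign and 16 the opposite. In the first of these comparisons the opposite signs lay in ATF6, CANX, CREB3L2, DERL1, KDELR3, PDIA6, SEC63 and SPCS3, of which SEC63 and CREB3L2 were called on the probe set used. A probe set bright enough to be chosen can also respond to related sequences, which the suffix of its name marks, and the probe sets used for HSP90B1, CALR, PDIA6 and SPCS3 carry the mark for cross-hybridization.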

How the data were processed

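Total RNA of 10 LoVo cultures was hybridised to Affymetrix HG-U133 Plus 2.0 arrays. The authors ran MAS 5.0 and deposited an unlogged intensity for each probe set, and their filter by a "perfect value" was not used here. Of 54675 probe sets 41091 carry 1 symbol in the platform annotation. Here log2 of the intensity was taken with no pseudocount, and genes with a mean signal of at least 84.5, the 50th percentile of probe set means, were tested with limma 3.58.1 in R 4.3.3 (lmFit, eBayes with an intensity trend, 1 model over 3 groups), with Benjamini-Hochberg adjustment over all 12293 tested genes. The thresholds are those the study set for SAM, which was not run. The procedure was tested on simulated data with known changes. As background level of an array served its 27 probe sets for Bacillus control RNA, at their 95th percentile. The number of arrays, 3 or 4 a group, limits the precision.

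Signals per array were given for the sensors, XBP1, HSPA5 and the 8 genes with the largest absolute difference in each comparison with serum starvation, and of each other list the called genes with the 2 largest rises and falls. The genes and lists were chosen with earlier results of these data known. Alternatives were other normalizations, filters, a pseudocount of 16, probe set rules, variance models, a replicate block, a looser threshold and each array left out. Promoter windows came from RefSeq, and PDIA3, DERL1, DERL3 and SEC24D had none. Text handling and plots used Python 3.11.15, pandas 2.3.3 and matplotlib 3.10.9.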

Additional observations from a re-analysis of the deposited data

Results flagged for a closer look

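In the ADMA group, the only one with 4 arrays, 1 array stood apart from the other 3 for 3 of the 39 genes, where chance sets an array apart in about 1 of 20 such groups. The gap of that array to its nearest neighbour, as a share of the group's whole range of log2 signals, was 0.858 for CANX, whose ADMA replicate 4 read 17675.8 as the highest. It was 0.902 for SEL1L, whose ADMA replicate 1 read 1143.6 as the lowest, and 0.839 for SSR3, whose ADMA replicate 4 read 7117.7 as the highest.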

How the results depend on the processing

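Over the alternatives run, the 25 genes lower with ADMA than in serum starvation ranged from 18 to 29 and the 0 higher from 0 to 1. Other counts and the medians moved under some alternatives. With arrays centred on their medians, serum starvation against control gave 12 higher and 15 lower and ADMA against control 2 and 28, and the medians of the 39 genes became -0.0614, -0.5751 and, with ADMA against serum starvation, -0.6078. Quantile normalization left 4 lower in serum starvation, with medians of 0.378 there and -0.534 with ADMA against serum starvation. The median in serum starvation was 0.2157 with the filter at the 75th percentile, and without probe sets marked as shared the 3 medians were 0.2634, -0.4621 with ADMA against serum starvation and -0.1084 with ADMA against control. The mean of the probe sets gave a median of -0.3909 with ADMA against serum starvation. An adjusted p under 0.05 with no fold minimum called 1 gene, DERL1, higher with ADMA. The cause of these moves was not tested, beyond the fewer genes that the stricter filters leave. With each array left out in turn, 17 to 20 genes were higher and 6 to 8 lower in serum starvation, with medians of 0.2797 to 0.3514. With ADMA against serum starvation the ranges were 0 to 1 higher (DERL1, without serum-starved replicate 3), 23 to 26 lower and medians of -0.5906 to -0.4725, and with ADMA against control 6 to 7 higher, 9 to 11 lower and medians of -0.093 to -0.0473.

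Same-numbered arrays of different groups did not deviate together, with 1 of 9 pairs over 0.1 (range -0.07 to 0.105), so the numbers were not taken to pair the arrays. With the number as a replicate block the calls came to 0 higher and 25 lower for ADMA against serum starvation, 20 and 7 for serum starvation against control, and 6 and 10 for ADMA against control, where XBP1 and SEC61B lost their calls (0.30, adjusted p = 0.0150, and -0.26 with a fold under 1.2).

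Signs of single genes turned as follows. In serum starvation against control, centring on the median gave HSPA5 -0.06, CANX -0.33, P4HB -0.29, DERL2 -0.0288, DERL3 -0.13, SEC61A1 -0.29, SEC61B -0.33, SSR1 -0.36, SSR3 -0.0024 and SEC23B -0.34. Leaving out shared probe sets gave CREB3L2 -0.0844, CANX -0.54, DERL1 0.27 and SSR3 -0.09, the mean of the probe sets gave P4HB -0.0749, DERL1 0.64, DERL3 -0.29 and SEC61A1 -0.042, and quantile normalization gave PDIA4 0.11 and DERL3 -0.12. With ADMA against serum starvation, centring gave ATF6 -0.09, CANX -0.0872, PDIA6 -0.0643, DERL3 -0.0968 and SPCS3 -0.0693. The mean of the probe sets gave ATF6 -0.28, XBP1 0.0676, CANX -0.15, DERL1 -0.39 and SPCS3 -0.0669, leaving out shared probe sets gave CREB3L2 0.10, CANX -0.38, DERL1 -0.47 and SPCS3 -0.14, and quantile normalization gave CANX -0.13, PDIA6 -0.0581 and DERL3 -0.0788. Array weights gave DERL3 -0.0501 and the replicate block CANX -0.0174. With ADMA against control, centring gave XBP1 -0.22, DNAJB9 -0.15, SEL1L -0.092, EDEM1 -0.02 and SEC63 -0.11, and the mean of the probe sets SEC61B 0.96. The probe set means of XBP1, CANX, DERL1, DERL3 and SEC61B each took in at least 1 probe set below the signal filter. With each array left out in turn, differences that crossed 0 ranged, in serum starvation against control, from -0.0867 to 0.0361 for PDIA4, -0.0258 to 0.106 for SEC61B and -0.0409 to 0.173 for SEC23B. With ADMA against serum starvation they ranged from -0.0274 to 0.0784 for ATF6, -0.12 to 0.0009 for SDF2L1, -0.0174 to 0.0549 for CANX and -0.17 to 0.25 for DERL3. Depth as such does not apply to arrays, and DERL3, with a mean signal of 115, is the gene whose signal over background limits it most.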
